A study of Mus musculus with 6 samples.

Results

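The 35 genes described here mark the wall of brain blood vessels. They were taken by symbol from a list of genes of blood-brain barrier endothelium, pericytes and smooth muscle, and each of the 35 symbols matched 1 of the 21959 genes in the deposited table. Of these genes, 23 belong to endothelial cells and 12 to mural cells, the pericytes and smooth muscle cells that wrap the vessel. The rule itself uses symbols and no measured value, but the list was drawn up with earlier results of these data known. RNA from the paraventricular thalamus, a midline thalamic nucleus, was sequenced in bulk from mice with chronic constriction injury (CCI), a model of neuropathic pain made by loose ties around a peripheral nerve, and from untreated controls. Both groups are labelled wild type and brain. Each group has 3 libraries, CCI replicates 1 to 3 and control replicates 4 to 6. The series' design text gives 30 mice a group without saying how they were divided, and strain, age, sex, time after injury and a sham operation are not given in the sources used here. The p-values set the difference between groups only against the scatter of these 6 libraries within their groups. Since separate animals per library are not stated, that scatter may be technical.

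Brain endothelial cells are joined by tight junctions, carry efflux and uptake transporters, and form the blood-brain barrier. Platelet-derived growth factor from the endothelium holds pericytes on the vessel through their PDGF receptor, and Notch signalling maintains mural cells. Vascular endothelial growth factor (VEGF) and angiopoietin receptors control vessel growth and stability, and contractile proteins of smooth muscle set the width of arterioles.

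In CCI, the pericyte receptor genes Pdgfrb and Notch3 rose 3.76-fold and 3.23-fold, and the VEGF receptor genes Flt1 and Kdr rose 1.49-fold and 1.59-fold. The calls of these VEGF receptor genes were lost when the trend of fold change with gene length was removed (log2 fold changes of -0.13 and 0.23), and Kdr also lost its call without any 1 of the CCI libraries. The endothelial membrane protein gene Itm2a fell 6.36-fold, the tight junction gene Ocln 3.68-fold, the efflux pump gene Abcg2 2.61-fold and the smooth muscle actin gene Acta2 2.54-fold. Counts were sufficient to test 33 of the 35 genes with edgeR's quasi-likelihood test, which was fitted over 14259 genes with Benjamini-Hochberg adjustment and a threshold of 0.05 for the adjusted p. Of the 33, 10 rose, 7 fell and 16 did not pass. Leaving out 1 library lowered the count of higher genes, to 4 without CCI replicate 1 or control replicate 6, 5 without CCI replicate 2 or 3, 6 without control replicate 4 and 9 without control replicate 5. The share of all genes called moved too, to 38.2%, 43.1%, 41.5%, 40%, 47.8% and 62% in the same order. With all 6 libraries, the 17 that passed make up 51.5%, beside 52.3% of all genes tested, of which 27.0% were higher and 25.3% lower in CCI. The median log2 fold change was 0.07 over the 33 genes and 0.06 over all genes tested, a middle value over genes that went both ways. The 3 CCI libraries lay entirely above the 3 control libraries in 12 of the 33 genes and entirely below them in 8, beside 33.6% and 29.4% of all genes tested (63.0% together).

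Endothelial and mural genes gave different counts, with no test of one list against the other. Of 23 endothelial genes 5 rose, 5 fell and 13 did not pass (43.5% called, median log2 fold change -0.20). Of 10 tested mural genes 5 rose, 2 fell and 3 did not pass (70% called, median 0.61). Among all genes tested 52.3% were called, 27.0% higher and 25.3% lower. The mural genes that rose include Anpep and Des, with at most 22 counts per library. The split of higher and lower calls depended on the processing. With upper quartile scaling, fold changes of all genes lay 0.22 (log2) higher at the median, 64.6% of all calls were higher in CCI against 51.6% with the TMM scaling used here, and 12 of the vascular genes were higher and 5 lower. By limma on log2(FPKM + 1), which changes the scaling, the test and the pseudocount together, the shift was 0.51, 83.2% of all calls were higher, and 15 vascular genes were higher and 3 lower. In bulk RNA, fewer cells of a type and less RNA per cell cannot be told apart.

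**Figure D1:**
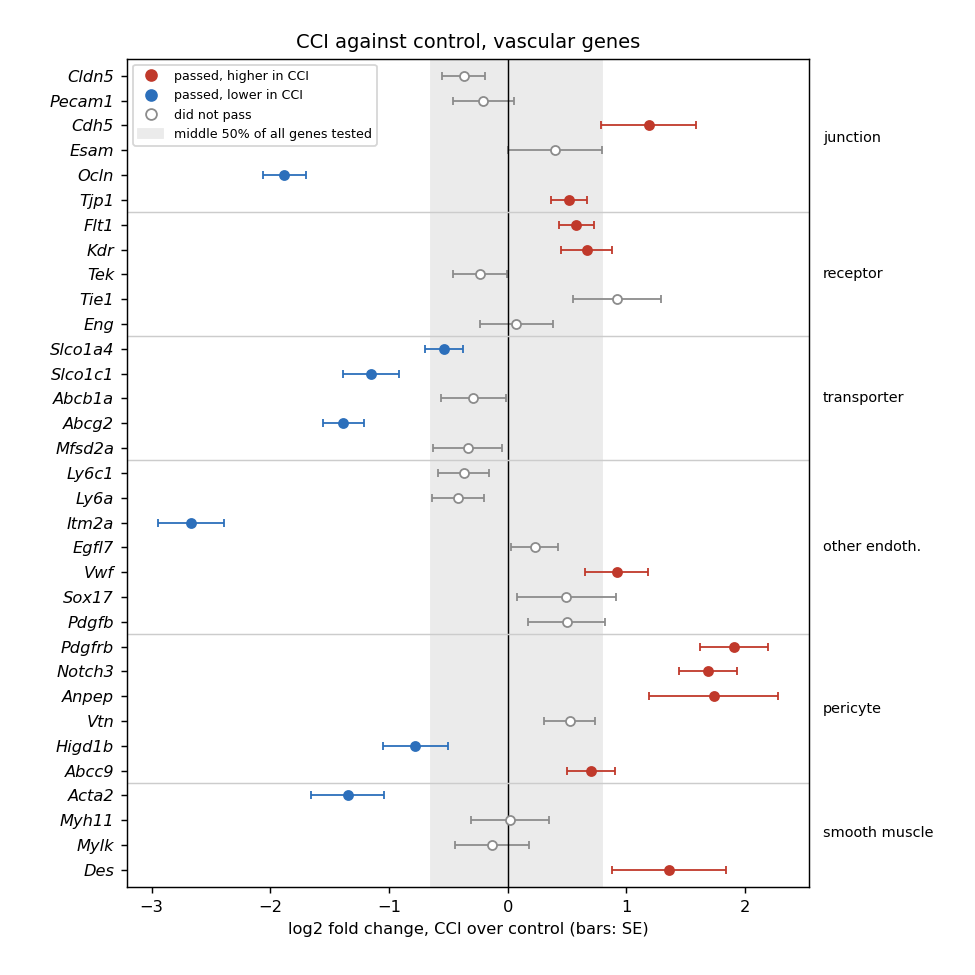
Log2 fold change of CCI over control with its standard error for the 33 tested vascular genes, by role from top to bottom; filled red and blue points passed an adjusted p of 0.05 and open grey points did not. The grey band spans the middle 50% of all genes tested (-0.65 to 0.80), and Itm2a, Ocln, Abcg2, Slco1c1, Acta2 and Higd1b lie below it while Pdgfrb, Anpep, Notch3, Des, Cdh5, Vwf and Tie1 lie above it.

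Library facts that touch every value are as follows. Total counts ran from 7989139 to 10529886 for CCI libraries and from 12337448 to 15438268 for controls, and TMM factors ran from 1.21 to 1.25 in the CCI libraries and from 0.69 to 0.90 in the controls. Control replicate 5 stood apart, with the factor of 0.69 and 20.7% of its counts in its 50 most abundant genes, against 12.6% to 14.5% in the other libraries. Levels are given in CPM, which scales each library's counts by its total times its TMM factor, and a per-length level is the deposited FPKM, which has no such adjustment.

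The RefSeq promoter table (GRCm38.p6) holds 30 start-site windows for 24 of the 35 genes. The 250 bases upstream of the start site are printed, 5′ to 3′ on the gene's strand, for 4 genes with a single window: a receptor gene that rose (Kdr), the endothelial gene with the largest fall (Itm2a), a mural gene that rose (Notch3) and the contractile gene that fell (Acta2). Capitals mark matches, on either strand, to CCGGAA (the ETS core, a factor family of endothelial genes), TGGGAA (RBPJ, the Notch effector), CATTCC (TEAD) and TATAAA (the TATA box).
Kdr, chr5:75978456-75978705, minus strand: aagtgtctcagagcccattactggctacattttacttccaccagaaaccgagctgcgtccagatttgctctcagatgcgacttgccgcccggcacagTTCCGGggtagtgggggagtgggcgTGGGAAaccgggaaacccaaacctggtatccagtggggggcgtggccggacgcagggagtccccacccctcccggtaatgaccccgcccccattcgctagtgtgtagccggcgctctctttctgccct
Itm2a, chrX:107403361-107403610, minus strand: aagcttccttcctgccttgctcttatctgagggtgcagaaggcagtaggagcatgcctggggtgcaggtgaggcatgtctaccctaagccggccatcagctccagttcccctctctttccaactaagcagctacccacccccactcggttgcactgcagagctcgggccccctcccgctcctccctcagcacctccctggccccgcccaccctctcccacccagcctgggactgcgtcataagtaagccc
Notch3, chr17:32166891-32167140, minus strand: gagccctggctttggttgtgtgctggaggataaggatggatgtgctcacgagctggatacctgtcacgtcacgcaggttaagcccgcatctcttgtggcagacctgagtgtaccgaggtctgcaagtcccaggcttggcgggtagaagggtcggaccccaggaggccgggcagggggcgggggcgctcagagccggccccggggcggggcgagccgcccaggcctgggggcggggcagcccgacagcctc
Acta2, chr19:34255374-34255623, minus strand: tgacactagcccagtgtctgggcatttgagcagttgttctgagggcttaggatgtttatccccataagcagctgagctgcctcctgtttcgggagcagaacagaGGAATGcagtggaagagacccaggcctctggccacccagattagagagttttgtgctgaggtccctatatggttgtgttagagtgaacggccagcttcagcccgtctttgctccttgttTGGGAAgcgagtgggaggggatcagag
Kdr had CCGGAA on the opposite strand with its first base 153 bases before the start site, and TGGGAA at 128 bases. Acta2 had CATTCC on the opposite strand at 146 bases and TGGGAA at 27 bases, and Itm2a and Notch3 had none of the 4 motifs in this stretch. Over the 30 windows the share with a match was 10% for CCGGAA, 20% for TGGGAA, 20% for CATTCC and 10% for TATAAA, beside 12%, 21.6%, 12.6% and 12.4% of all 32851 windows of the same length. The CArG box, the serum response factor motif of contractile genes (CC, then 6 of A or T, then GG), was matched in none of the 30 and in 1.47% of all windows. That pattern allowed no mismatch, so near matches such as ccctatatgg and ccttgttTGG in the Acta2 window were neither counted nor marked as CArG boxes. The contractile genes Tagln and Myh11 had no window. The absence of exact matches therefore does not show that contractile genes lack this element. A match is a description of letters and not a bound site.

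Among the junction genes, Ocln changed most. Ocln (ENSMUSG00000021638, chromosome 13, 100633015 to 100689226, minus strand, GRCm39) encodes occludin, a membrane protein of tight junction strands. Its level was 12.6, 13.4 and 13.6 CPM in CCI replicates 1 to 3 and 55.5, 40.4 and 50.2 CPM in control replicates 4 to 6. The groups were far apart, and the CCI libraries were nearly equal. CCI averaged 13.2 ± 0.532 CPM and control 48.7 ± 7.65 (SD, n = 3). The log2 fold change was -1.88 ± 0.18 (SE; adjusted p = 0.000209). Ocln passed under all 16 alternative settings tried, with log2 fold changes from -2.02 to -1.09.

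Other junction genes went the opposite way or did not pass. Tjp1, the zonula occludens scaffold that ties claudins and occludin to actin, stood at 64.4, 76.5 and 67.9 CPM in CCI and at 45.4, 53.2 and 47.1 in control, and rose by 0.52 ± 0.15 on the log2 scale (adjusted p = 0.0185). Cdh5, the endothelial adherens junction cadherin, stood at 3.11, 2.1 and 4.47 CPM in CCI and at 1.07, 1.89 and 1.35 in control, and rose by 1.19 ± 0.40 (adjusted p = 0.0341). CCI libraries were above control libraries in both genes, though for Cdh5 the lowest CCI and the highest control library were close. Cldn5, the main claudin of the barrier, stood at 15.1, 18.1 and 15.4 CPM in CCI and at 21.1, 18.3 and 23.3 in control (-0.37 ± 0.18, adjusted p = 0.118). Cldn5 passed without control replicate 5 (-0.48, adjusted p = 0.0254). The adhesion genes Pecam1 (-0.20 ± 0.26) and Esam (0.40 ± 0.40) overlapped between groups, and Esam was at 4.85 CPM in control replicate 5 against 17.9 and 13.4 in the other controls. Tjp1 did not pass with the trend of fold change with gene length removed (0.16, adjusted p = 0.408), nor without CCI replicate 2, control replicate 4 or control replicate 6 (0.44, 0.43 and 0.49; adjusted p = 0.0857, 0.0761 and 0.0710). For Cdh5 the call was lost when any of 4 libraries was left out, CCI replicates 1 and 3 and control replicates 4 and 6 (1.21, 0.87, 0.98 and 1.14; adjusted p = 0.0808, 0.133, 0.111 and 0.0904).

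Of the 5 receptor genes, 2 rose and none fell, a share called of 40% beside 52.3% of all genes tested. Flt1, a high-affinity VEGF receptor that also acts as a decoy, stood at 68.3, 79.5 and 76.0 CPM in CCI and at 52.3, 45.2 and 52.4 in control (0.58 ± 0.15, adjusted p = 0.0111). Kdr, the main signalling receptor for VEGF, stood at 12.8, 11.2 and 13.2 CPM in CCI and at 9.10, 6.62 and 7.63 in control (0.67 ± 0.21, adjusted p = 0.0287). In both genes the lowest CCI library was above the highest control library. Tie1, a partner of the angiopoietin receptor, did not pass although the groups did not overlap, with 3.61, 4.93 and 7.09 CPM in CCI and 3.30, 1.66 and 3.22 in control (0.92 ± 0.37, adjusted p = 0.0644), and passed with upper quartile scaling (1.13, adjusted p = 0.0312). The angiopoietin receptor gene Tek (-0.23 ± 0.23) and Eng (0.07 ± 0.31), a co-receptor for TGF-beta, did not pass. With the length trend removed Flt1 turned to -0.13 (adjusted p = 0.513) and Kdr was at 0.23 (adjusted p = 0.370). Flt1 did not pass without CCI replicate 2 (0.53, adjusted p = 0.0528), nor Kdr on leaving out any 1 CCI library (replicates 1 to 3 in turn) or control replicate 6 (0.64, 0.73, 0.62 and 0.65; adjusted p = 0.0988, 0.0553, 0.0811 and 0.0825).

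None of the 5 transporter genes rose, and 3 fell, a share called of 60% beside 52.3% of all genes tested. Abcg2 (ENSMUSG00000029802, chromosome 6, 58561508 to 58672661, plus strand, GRCm39), an efflux pump for drugs and urate, stood at 22.8, 28.3 and 27 CPM in CCI and at 58.5, 76.8 and 68.9 in control. Every control library had more than the highest CCI library, and the log2 fold change was -1.385 ± 0.17 (adjusted p = 0.000446). It passed under all 16 alternatives (-1.77 to -0.65). Slco1c1, a thyroxine and organic anion carrier that astrocytes also express, stood at 35.7, 39.7 and 32.1 CPM in CCI and at 90.5, 95.3 and 53.0 in control (-1.15 ± 0.23, adjusted p = 0.00386). Control replicate 6 was the lowest control and still above CCI. Slco1a4, a related organic anion carrier, stood at 70.0, 63.3 and 72.7 CPM in CCI and at 115, 88.3 and 95.9 in control (-0.54 ± 0.16, adjusted p = 0.0208). The P-glycoprotein gene Abcb1a (-0.29 ± 0.27) and the lysolipid transporter gene Mfsd2a (-0.34 ± 0.29) overlapped between groups. On log2(FPKM + 1) Slco1c1 did not pass (-0.47, adjusted p = 0.0941) and Slco1a4 was at 0.06 (adjusted p = 0.808). Slco1a4 also did not pass with upper quartile scaling (-0.32, adjusted p = 0.127), nor on leaving out the first or second CCI library or control replicate 4 (-0.55, -0.49 and -0.47; adjusted p = 0.0719, 0.0854 and 0.0538).

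The other endothelial genes held the largest change of the 33. Itm2a (ENSMUSG00000031239, X chromosome, 106440705 to 106446982, minus strand, GRCm39), a membrane protein gene used as a marker of brain endothelium, stood at 51.3, 63.9 and 52.3 CPM in CCI and at 255, 505 and 306 in control. The groups lay far apart, and control replicate 5 was the highest of all. Which cells of the dissected tissue gave the Itm2a RNA was not tested. CCI averaged 55.8 ± 7 CPM and control 355 ± 132 (SD, n = 3), and the log2 fold change was -2.67 ± 0.28 (adjusted p = 0.000247). Itm2a passed under all 16 alternatives, from -2.90 to -1.81, the smallest with length and GC trends removed. Vwf, the clotting factor carrier of endothelial granules, stood at 5.91, 6.12 and 6.32 CPM in CCI and at 2.59, 4.02 and 3.14 in control (0.92 ± 0.27, adjusted p = 0.0185). It is the longest of the 35 genes (16064 bp), was at 0.10 with the length trend removed (adjusted p = 0.773) and turned to -0.49 with length and GC trends removed (adjusted p = 0.222). Vwf did not pass without any 1 of CCI replicates 1, 2 and 3 and control replicates 4 and 6 (0.94, 0.92, 0.89, 0.74 and 0.89; adjusted p = 0.0573, 0.0554, 0.0512, 0.0703 and 0.0576).

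Pdgfb, the ligand that endothelium presents to pericytes, stood at 9.82, 8.67 and 12.6 CPM in CCI and at 7.76, 4.14 and 9.88 in control, and its difference did not pass (0.50 ± 0.32, adjusted p = 0.223). Its receptor gene rose, as given below. The arterial transcription factor gene Sox17 (0.50 ± 0.42) and the secreted angiogenic factor gene Egfl7 (0.23 ± 0.20) overlapped between groups. Ly6c1 (-0.37 ± 0.21, adjusted p = 0.169) and Ly6a (-0.42 ± 0.22, adjusted p = 0.141) did not pass either. These surface proteins belong to a family of similar neighbouring genes. How the counting treated reads that fit several copies is not given in the sources used here and was not tested, so their values may be uncertain.

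Of the 6 pericyte genes 4 rose and 1 fell, and the groups did not overlap in any of the 6, beside 52.3% called and 63.0% not overlapping among all genes tested. In Vtn, which did not pass, the lowest CCI library (35.05 CPM) and the highest control library (34.8 CPM) nearly met. Pdgfrb (ENSMUSG00000024620), the PDGF receptor of pericytes, stood at 11.4, 11.9 and 16 CPM in CCI and at 4.73, 2.84 and 2.84 in control. CCI averaged 13.1 ± 2.49 CPM and control 3.47 ± 1.09 (SD, n = 3), and the log2 fold change was 1.91 ± 0.29 (adjusted p = 0.000995). Notch3 (ENSMUSG00000038146, chromosome 17, 32339794 to 32385826, minus strand, GRCm39), the Notch receptor of mural cells, stood at 21, 19.4 and 18 CPM in CCI and at 7.76, 4.26 and 5.99 in control (1.69 ± 0.25, adjusted p = 0.000880). Every CCI library had more than 2 times the level of every control library in both genes. Both passed under all 16 alternatives, from 1.37 to 2.32 for Pdgfrb and from 0.65 to 2.15 for Notch3. The value of 0.65 for Notch3 (adjusted p = 0.0236) came with length and GC trends removed.

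The pericyte genes with smaller or less stable differences were Anpep, Abcc9, Vtn and Higd1b. Anpep, the surface peptidase aminopeptidase N, rose from few counts, 2, 4 and 4 in control replicates 4 to 6 against 9, 8 and 19 in CCI replicates 1 to 3 (1.74 ± 0.54, adjusted p = 0.0262). Abcc9, a subunit of the ATP-sensitive potassium channel of mural cells, stood at 13.7, 12.6 and 13.3 CPM in CCI and at 7.05, 8.87 and 8.38 in control (0.70 ± 0.20, adjusted p = 0.0172). Vtn, which encodes the matrix glycoprotein vitronectin, stood at 36.5, 51.7 and 35.1 CPM in CCI and at 34.8, 24.1 and 26.7 in control and did not pass (0.52 ± 0.22, adjusted p = 0.0702). It passed under 7 of the 16 alternatives, among them without control replicate 4 (0.65, adjusted p = 0.0499). Higd1b, a pericyte marker of the hypoxia-inducible domain family, went the other way, with 6.01, 7.30 and 6.32 CPM in CCI and 9.55, 15.6 and 8.75 in control (-0.78 ± 0.28, adjusted p = 0.0410). It kept its call under 6 of 16 alternatives and failed on leaving out each CCI library (replicates 1 to 3 in turn) or control replicate 5 (-0.73, -0.87, -0.76 and -0.51; adjusted p = 0.124, 0.0731, 0.106 and 0.0614). With the DESeq2 Wald test Anpep did not pass (1.69, adjusted p = 0.0537), and with no filter on low counts its adjusted p was 0.0506. Anpep failed when CCI replicates 1 and 3 and control replicates 4 and 6 were left out in turn (1.82, 1.376, 1.42 and 1.71; adjusted p = 0.0571, 0.105, 0.0923 and 0.0761), and Abcc9 without CCI replicate 1 or control replicate 4 (0.67 and 0.57; adjusted p = 0.0731 and 0.0715) and with the length trend removed (0.31, adjusted p = 0.225).

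Smooth muscle contractile genes did not move together. Acta2 (ENSMUSG00000035783, chromosome 19, 34218490 to 34232990, minus strand, GRCm39), smooth muscle actin, stood at 6.61, 12.2 and 8.86 CPM in CCI and at 32.1, 16.8 and 21.5 in control. CCI averaged 9.23 ± 2.83 CPM and control 23.5 ± 7.85 (SD, n = 3), and the log2 fold change was -1.35 ± 0.31 (adjusted p = 0.0065). The groups did not overlap, but the highest CCI and the lowest control library were close. Acta2 did not pass on log2(FPKM + 1) (-0.64, adjusted p = 0.114). Des, the muscle intermediate filament desmin, had 13, 14 and 22 counts in CCI and 10, 4 and 4 in control (1.36 ± 0.48, adjusted p = 0.0403). Des did not pass by the DESeq2 Wald test (1.32, adjusted p = 0.0658). Des failed when all but control replicate 4 were left out in turn, in the order of their numbers (1.42, 1.43, 1.21, 1.27 and 1.01; adjusted p = 0.0869, 0.0780, 0.123, 0.0686 and 0.140).

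Myosin heavy chain (Myh11) stood at 2.81, 3.10 and 2.39 CPM in CCI and at 2.77, 3.55 and 1.95 in control (0.02 ± 0.33), and its kinase Mylk at 9.72, 9.86 and 8.78 against 7.5, 16 and 7.86 (-0.13 ± 0.31). Both ranges overlapped. Calponin (Cnn1) had 13, 7 and 4 counts in CCI and 11, 1 and 4 in control and was not tested. Transgelin (Tagln) had 2, 1 and 2 counts in CCI and 0 in each control library, where the limit that a count of 0 allows is 3 counts, and was not tested. In the GENCODE M21 annotation (GRCm38) 67.9% of the exonic bases of Tagln overlap exons of genes on the opposite strand, among them Pcsk7, and no strand setting of the counting is stated, so its count is uncertain. Exons of 26 of the 35 genes share no base with another gene's. Of these, 7 rose and 7 fell. The highest overlap among the genes that passed was 6.03%, in Notch3.

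**Figure D2:**
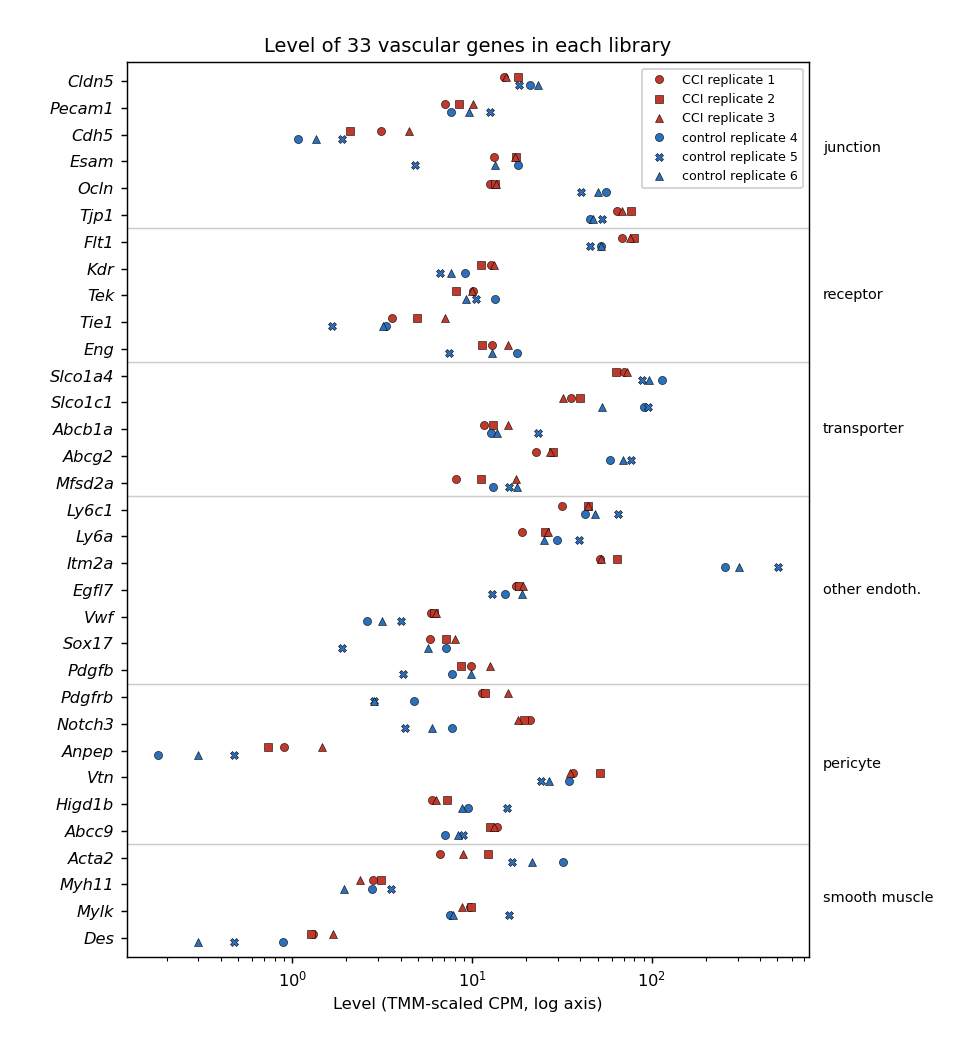
Level of each of the 33 tested vascular genes in each library, in TMM-scaled CPM on a log axis, with CCI libraries in red and control libraries in blue. The 3 CCI points of Ocln, Abcg2 and Itm2a lie left of the 3 control points and those of Pdgfrb and Notch3 right of them, while control replicate 5 (crosses) lies low for Esam, Sox17, Tie1 and Pdgfb and high for Itm2a, Abcb1a and Mylk.

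Control replicate 5 was not uniformly poor in vascular RNA. Relative to the mean of control replicates 4 and 6 its level differed by -1.76 (log2) for Sox17, -1.69 for Esam, -1.09 for Pdgfb, -1.04 for Eng and -0.98 for Tie1, but by 1.06 for Mylk, 0.85 for Itm2a and 0.82 for Abcb1a. It was the lowest control in 15 of the 33 genes (45.5%), beside 42.8% of all genes tested. Across genes, the same difference had a Spearman correlation with the GC content of the transcript of -0.33 over 14159 genes and of -0.43 over the 33, so the genes that were low in this library tended to be rich in GC. Genes share the library and are not independent replicates. Without control replicate 5, 9 of the vascular genes were higher and 7 lower in CCI, and 62% of all genes tested were called.

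Fold change followed gene length in these libraries. When the tested genes were ranked by length into 5 equal groups, the median log2 fold change was -0.34 in the group of the shortest genes (255 to 2557 bp), then -0.24, 0.01 and 0.24, and 0.58 in that of the longest (7780 to 123179 bp). The 10 vascular genes that rose had a median length of 7950 bp, the 7 that fell 4222 bp and the 16 that did not pass 4104.5 bp. Across genes the Spearman correlation of length with log2 fold change was 0.28 over all genes tested and 0.36 over the 33, and that of GC content was 0.17 and 0.56. With the length trend removed, 6 vascular genes were higher and 7 lower, and with length and GC trends removed 5 were higher and 8 lower. Of all genes, 48% of 14259 (3187 higher, 3658 lower) and 46.7% of 14241 (3120 higher, 3526 lower) were called in these fits. Uncorrected, the share was 52.3%. Of 5 endothelial genes that rose, Cdh5 alone passed in those 2 fits, at 1.22 and 1.19. Among the mural genes Pdgfrb (1.77 and 1.51), Notch3 (1.32 and 0.65) and Anpep (1.78 and 1.69) passed in both, as did Vtn (0.82 and 0.67), which had not passed uncorrected. Des passed with the length trend alone removed (1.49). Of the genes that fell, Itm2a, Ocln, Abcg2, Slco1c1, Slco1a4 and Acta2 passed in both, and Higd1b with the length trend alone removed. Mylk, not called uncorrected, was at -1.0 with length and GC trends removed (adjusted p = 0.0464), and Cldn5 at -0.60 (adjusted p = 0.0178).

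**Figure D3:**
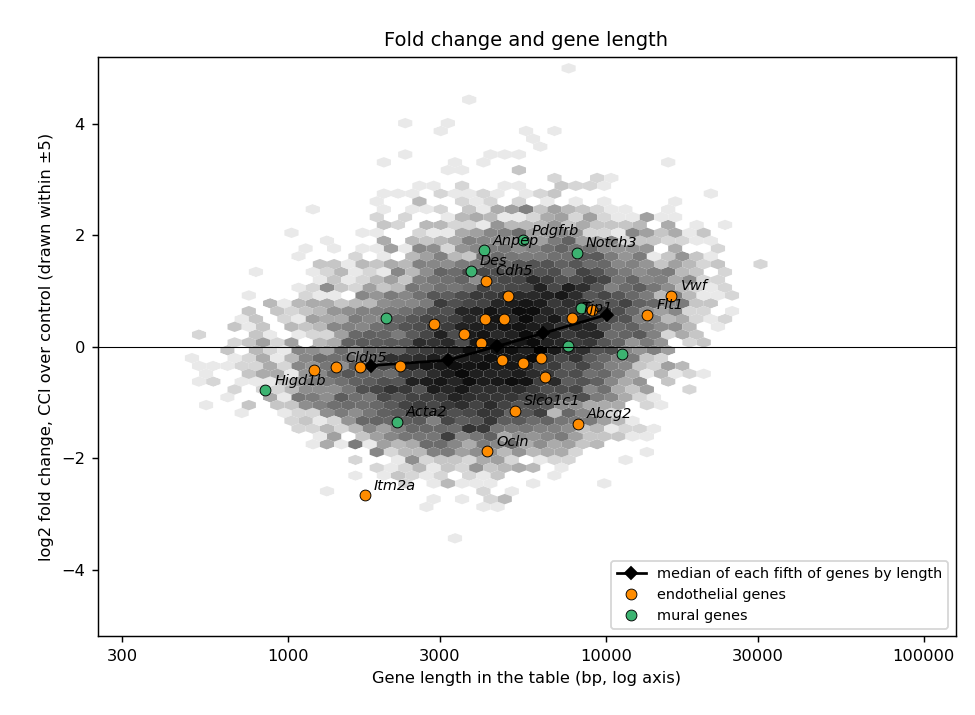
Log2 fold change of CCI over control against gene length on a log axis, for all 14259 genes tested (grey hexagons, darker where more genes lie), the endothelial genes (orange) and the mural genes (green). The black line joins the medians of 5 equal groups by length and climbs from -0.34 to 0.58; Itm2a, Ocln and Abcg2 lie below it and Pdgfrb and Notch3 above it.

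**Figure D4:**
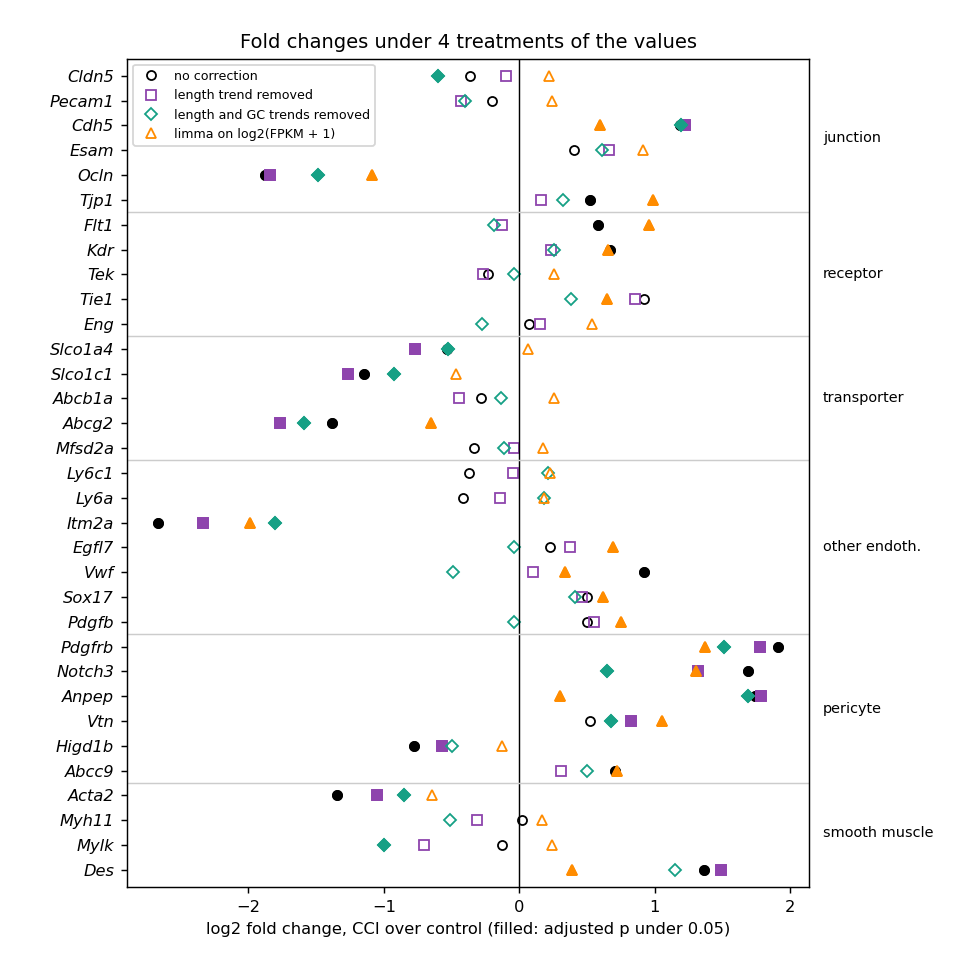
Log2 fold change of each of the 33 vascular genes with no correction (circles), with the length trend removed (squares), with length and GC trends removed (diamonds) and by limma on log2(FPKM + 1) (triangles); filled symbols passed an adjusted p of 0.05. All 4 symbols are filled on the same side of 0 for Ocln, Abcg2, Itm2a, Pdgfrb, Notch3, Cdh5 and Anpep, while those of Flt1 and Vwf straddle 0.

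Levels between genes are compared per length, in deposited FPKM. In control, Itm2a was the most abundant of the 35 at 161 ± 34.5 FPKM, well above Ly6c1 (24.8 ± 1.85) and Ly6a (21 ± 2.44). Slco1a4, Slco1c1, Cldn5, Vtn and Higd1b followed between 12.8 and 10.6 FPKM, neighbours that do not differ beyond their spread. Ocln (9.56 ± 2.71) and Acta2 (8.97 ± 3.98) came next. Pdgfrb (0.527 ± 0.221), Notch3 (0.622 ± 0.252) and Kdr (0.714 ± 0.203) were much lower and also lay within each other's spread, and Cdh5 (0.272 ± 0.0400), Vwf (0.162 ± 0.0148), Des (0.123 ± 0.0791) and Anpep (0.0600 ± 0.0199) were near the bottom, above Tagln, listed at 0. In CCI, Itm2a was still first at 39.3 ± 4.31 FPKM, but Ly6c1 (29.3 ± 4.93), Vtn (24.8 ± 5.18) and Ly6a (24.0 ± 3.89) now lay close to it. Notch3 moved from rank 26 of 35 in control to rank 20 in CCI and Pdgfrb from 27 to 21, while Ocln moved from rank 9 to 17 and Abcg2 from 11 to 16.

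Summed over genes, the 23 endothelial genes made up 513 to 585 CPM in CCI and 894 to 1135 CPM in control. Itm2a carried much of that gap, and the other 22 summed to 462 to 533 CPM in CCI and 591 to 639 in control. The 12 mural genes summed to 112 to 131 CPM in CCI and 84.9 to 108 in control. In TMM-scaled CPM the groups did not overlap in any of these sums. The endothelial sum was lower and the sum of these 12 mural genes higher in CCI. TMM factors of 1.21 to 1.25 in CCI lower those levels, and factors of 0.69 to 0.90 in control raise them. No sum was computed without the factors, and whether the lower endothelial sum depends on this scaling was not tested. The mural direction was not shared by the sum of 22 further pericyte and smooth muscle genes, described below. They summed to 438 to 451 CPM in CCI and 789 to 1008 in control. The gene Rgs4 carried much of that gap, with a mean of 89.6 CPM in CCI and 374 in control. Rgs5 carried a smaller part (110 and 225 CPM). Which cells gave the Rgs4 RNA was not tested, and the sum without Rgs4 was not computed. Gene by gene, 4 of the 20 tested rose and 7 fell.

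Ligands and partners of these receptors were read from lists of related genes. Shares called in these lists are to be read beside the 52.3% of all genes tested. Of 13 tested VEGF, angiopoietin and PDGF ligand and co-receptor genes 3 rose, 1 fell and 9 did not pass (30.8% called). The VEGF and semaphorin co-receptors Nrp2 (1.83 ± 0.26) and Nrp1 (0.91 ± 0.22, and 0.42 with the length trend removed, adjusted p = 0.121) rose. Vegfd rose by 1.53 ± 0.42, from 1.04 ± 0.507 to 2.93 ± 0.280 CPM, but not without CCI replicate 1 (1.45, adjusted p = 0.0541). The Tek ligand gene Angpt1 fell from 10.2 ± 2.95 to 4.91 ± 1.18 CPM (-1.04 ± 0.31, adjusted p = 0.0197). The Angpt1 call was lost without CCI replicate 2 or control replicate 6 (-0.86 and -1.0; adjusted p = 0.0735 and 0.0527), nor did it pass on log2(FPKM + 1) (-0.24, adjusted p = 0.204). Of 21 tested Notch and TGF-beta pathway genes 8 rose and 1 fell (42.9% called). The inhibitory helix-loop-helix genes Id1 (2.51 ± 0.34) and Id3 (1.46 ± 0.20), targets of bone morphogenetic protein signalling, rose. The Notch ligand gene Jag2 rose by 1.21 ± 0.22 and was at 0.14 with length and GC trends removed (adjusted p = 0.596), and the Notch target gene Hey1 fell (-1.21 ± 0.17), though on log2(FPKM + 1) it did not pass (-0.56, adjusted p = 0.0572).

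Further genes of the vessel wall also went both ways. Of 30 more endothelial genes 6 rose, 7 fell and 17 did not pass (43.3% called). The junction genes Cldn12 (-1.58 ± 0.18) and Jam2 (-1.29 ± 0.19) fell, as did Bsg, a widely expressed transporter chaperone gene (2890 ± 117 to 847 ± 125 CPM). On log2(FPKM + 1) Jam2 did not pass (-0.59, adjusted p = 0.0686). The lipoprotein receptor gene Lrp8, also expressed by neurons, rose by 1.53 ± 0.15. Of 20 tested further pericyte and smooth muscle genes 4 rose, 7 fell and 9 did not pass (55% called). The pericyte marker Rgs5 fell from 225 ± 30.3 to 110 ± 14.3 CPM (-1.04 ± 0.18) and the myosin light chain gene Myl9 from 61.4 ± 5.04 to 28.1 ± 3.28 (-1.12 ± 0.16), whereas Cspg4, which oligodendrocyte precursors also express, rose from 3.19 ± 1.26 to 14.3 ± 2.04 (2.14 ± 0.32, and 0.85 with length and GC trends removed). Rgs5 did not pass on log2(FPKM + 1) (-0.42, adjusted p = 0.122). Among 11 basement membrane genes there were 6 higher and 0 lower calls (54.5% called), and CCI libraries lay above control libraries in 10, beside 27.0% and 33.6% of all genes tested. Lama5, Agrn and Hspg2 are 11388, 9285 and 14739 bp long, and 49.7% of all genes in the group of the longest (7780 bp or more) were higher in CCI. The laminin gene Lama5 rose from 1.33 ± 0.326 to 13.7 ± 1.40 CPM (3.37 ± 0.28) and was at 2.05 with length and GC trends removed. Agrn (0.96 ± 0.16) and Hspg2 (2.28 ± 0.42) were at -0.01 and 0.74 in that fit and did not pass (adjusted p = 0.975 and 0.154). Of 15 tested genes of endothelial activation and fenestration 1 rose and 4 fell (33.3% called), among them the caveolin gene Cav2 (99.3 ± 6.45 to 23.5 ± 3.42 CPM, -2.08 ± 0.17). The adhesion gene Sele was listed at 0 counts in every library.

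Markers of other cells that the dissection could hold were measured in the same libraries. The summed levels, in TMM-scaled CPM, did not overlap between the groups for thalamic, hippocampal and cortical, oligodendrocyte, astrocyte, microglia and red blood cell genes. They overlapped for habenula, fibroblast and choroid plexus genes. Sums without the TMM factors were not computed. Calls are to be read beside the 52.3% of all genes tested. Summed levels of 10 thalamic genes were 1155 to 1881 CPM in CCI and 4432 to 7247 in control (0 higher and 6 lower of 9 tested). Those of 10 hippocampal and cortical neuron genes were 181 to 212 against 71.0 to 92.4 CPM (6 higher of 8 tested), and those of 10 oligodendrocyte genes 18569 to 24472 against 7186 to 13937 (7 higher of 10). For 10 astrocyte genes they were 3717 to 4443 against 8276 to 11121 (2 higher and 3 lower), for 6 habenula genes 211 to 587 against 474 to 1618 (3 lower of 6) and for 12 microglia and macrophage genes 174 to 234 against 247 to 293 (2 higher and 2 lower of 11). Sources that could bring large vessels or other RNA along were also measured. Fibroblast genes of the perivascular space and meninges summed to 704 to 998 CPM in CCI and 506 to 863 in control (3 higher and 2 lower of 11, with Igf2 at 0). Choroid plexus and ependymal genes summed to 4510 to 5474 against 1171 to 7791 (2 higher of 12), and red blood cell genes to 929 to 986 against 1132 to 1898 (3 higher and 2 lower of 7). Their part in the vascular differences was not tested.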

How the data were processed

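Bulk RNA from 6 libraries, 3 CCI and 3 control, was measured by sequencing of poly-A selected RNA, per the labels' protocols. The submitters' processing notes name the genome build GRCm39, the aligner HISAT2 2.1.0 and the counter HTSeq 0.9.1, and also StringTie 2.2.1, fastp 0.22.0 and DESeq 1.38.3. The strand setting is not given in the sources used here. The deposited table holds, per the file headers, a whole-number read count and an FPKM value per gene and library, and a Length in bp. The deposited FPKM was checked to equal count over Length and column total within a relative tolerance of 1e-06.

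Genes passing filterByExpr were tested with edgeR 4.0.16 (R 4.3.3; TMM, quasi-likelihood F-test, Benjamini-Hochberg over all genes tested), with each standard error taken as the absolute log2 fold change over the root of F. Alternatives were edgeR with DESeq2 size factors or upper quartile scaling, no filter, at least 50 counts in 3 libraries, the DESeq2 1.42.0 Wald test, limma-voom (limma 3.58.1), limma on log2(FPKM + 1) and log2(FPKM + 0.1), per-library lowess trends on Length as offsets, and each library left out. The trends on Length and GC content together, for 14241 tested genes with a GENCODE M21 transcript, and the count over genes without exon overlap were added after the data were seen. The 35 genes and all lists were chosen with earlier results of these data known. Every one of the 35 is described, and of each list of related genes those named are among the 4 with the smallest p, except Sele, named after its values were seen. The code was tested on simulated data with a set scatter between libraries. It called 39.8% of 2-fold and 98% of 4-fold changes, with 7 false calls over 14118 genes. Far fewer genes were changed in that simulation than the 52.3% called in these data, which makes the adjusted threshold stricter there. The shares recovered therefore do not give the power of the fit used here. A gene that did not pass here is not shown to be unchanged. Depth sets the precision. Intervals for counting error are not given, and a count of 0 allows up to 3 counts.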

Additional observations from a re-analysis of the deposited data

How the results depend on the processing

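No paired analysis was possible because the groups share no replicate number. Ocln, Abcg2, Itm2a, Pdgfrb and Notch3 kept direction and call under all 16 alternatives run for each. Across the 6 fits without 1 library, the number of vascular genes higher in CCI was 4 to 9 (10 with all libraries) and lower 5 to 7 (7), of endothelial genes higher 1 to 5 (5) and lower 4 to 6 (5), and of mural genes higher 2 to 4 (5) and lower 1 to 2 (2), and 5511 to 8975 of all genes passed. On log2(FPKM + 1) there were 3 lower genes in all, 9 endothelial higher, 3 endothelial lower and 0 mural lower; on log2(FPKM + 0.1) these were 3, 8, 3 and 0. With the length trend removed 6 genes were higher, 1 of them endothelial, and with length and GC trends removed 5 and 1, beside 48% and 46.7% of all genes called. With no filter, and by the DESeq2 Wald test, 3 mural genes were higher. With upper quartile scaling, the stricter filter or limma-voom 1 mural gene was lower. The cause of these moves was not tested. The fits without a library had fewer samples, yet without control replicate 5 more genes passed (8975) than with all libraries (7461).

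Signs turned as follows, with log2 fold changes. On log2(FPKM + 1) and log2(FPKM + 0.1) they were Cldn5 0.22 and 0.23, Pecam1 0.24 and 0.38, Tek 0.25 and 0.36, Slco1a4 0.0624 and 0.0689, Abcb1a 0.25 and 0.33, Mfsd2a 0.17 and 0.19, Ly6c1 0.22 and 0.23, Ly6a 0.18 and 0.19, and Mylk 0.24 and 0.49. With upper quartile scaling they were Pecam1 0.0165 and Mylk 0.0906. With the length trend removed they were Flt1 -0.13 and Myh11 -0.32, and with length and GC trends removed Flt1 -0.19, Eng -0.27, Ly6c1 0.21, Ly6a 0.18, Egfl7 -0.0376, Vwf -0.49, Pdgfb -0.0390 and Myh11 -0.51. Myh11 was at -0.0346 with DESeq2 size factors and at -0.0337 by the DESeq2 Wald test. Without 1 library, Eng ranged from -0.21 to 0.34, Abcb1a from -0.49 to 0.0097, Myh11 from -0.19 to 0.21 and Mylk from -0.36 to 0.27. Of these, Flt1, Slco1a4 and Vwf had passed. The stricter filter gave no value for Cdh5, Tie1, Anpep, Myh11 and Des. Depth limits Anpep, Des, Cnn1 and Tagln, whose libraries held at most 22 counts.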
